A study of Mus musculus with 12 samples.

Results

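The 9 transcription factors described here, Neurod1, Isl1, Pax6, Nkx2-2, Rfx6, Insm1, Foxa2, Myt1 and St18, are regulators of the pancreatic islet grouped as pan-endocrine. The name marks them as shared among hormone-producing cell types, not as present in every one of them. They were chosen by name, and all 9 had an entry both among the 31055 genes of the single-cell matrices and among the 45808 genes of the bulk count table. The comparisons ask whether these shared regulators are present at similar levels in the islet cell types, with the Ppy-expressing γ-cell, the producer of pancreatic polypeptide, as the cell under study. Single-cell libraries came from islets of doxycycline-treated Ppy-rtTA; R26-YFP mice (Ppy-YFPi; the bulk libraries' labels spell the line Ppy-rtTA; TetO-Cre; R26-YFP), in which rtTA expressed from the Ppy locus drives Cre when doxycycline is given, so that cells expressing Ppy at that time, and their progeny, keep YFP. Mice drank doxycycline (1 mg/ml) starting at 1 month and were studied when 2 months old. In each of 2 experiments on pooled mice, sorted YFP+ and YFP- cells were loaded as separate samples, which gave 4 libraries. Bulk RNA-seq was made from YFP+ cells of 2-month-old animals, 5 libraries of γ-cells from the same Ppy line and 3 libraries of δ-cells from Sst-Cre; R26-YFP mice, in which Cre driven by the somatostatin gene labels every cell that has expressed it. The γ and δ bulk libraries also differed in sequencing: the γ libraries were read as pairs of 100 bases and the δ libraries as single reads of 100 bases on another HiSeq model, so that cell type, mouse line and sequencing run cannot be told apart in the bulk comparison. The γ mice had received doxycycline as above. The δ libraries carry the same treatment note, which speaks only of labelling Ppy-expressing cells, and their Cre needs no doxycycline, so it is not clear whether the δ mice were given it, and treatment too may differ between the bulk groups.

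Islet endocrine cells arise from progenitors that pass through a short wave of Neurog3 expression. Several of the 9 genes act just downstream of that wave, and all are known to be expressed in mature islet cells, where they bind the promoters and enhancers of hormone and secretory genes. Foxa2 is a forkhead pioneer factor already present in the gut endoderm. Neurod1 is a basic helix-loop-helix activator that pairs with the ubiquitous E proteins. Isl1 (a LIM-homeodomain factor that works with Ldb1), Pax6 (with a paired domain and a homeodomain) and Nkx2-2 (a homeodomain factor that recruits Groucho/TLE co-repressors) belong to the homeobox families. Rfx6 carries the winged-helix domain of the RFX family, Insm1 is a zinc-finger repressor that recruits chromatin-modifying complexes, and Myt1 and St18 are related zinc-finger proteins of the MYT family.

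The genes differ widely in base composition, which is set beside the bulk comparison further below. In GRCm38, 6 of the 9 lie on chromosome 2 (Neurod1, Pax6, Nkx2-2, Insm1, Foxa2 and Myt1), with Isl1 on chromosome 13, Rfx6 on chromosome 10 and St18 on chromosome 1. The coding sequence of Insm1 was 74.1% G or C, followed by Nkx2-2 at 65.8%, Foxa2 at 63.7%, Neurod1 at 56.6%, Isl1 at 53.7%, Myt1 at 53.0%, Pax6 at 52.6%, St18 at 47.8% and Rfx6 at 46.6%. Of all windows of 100 coding bases, 74.5% reached 70% GC in Insm1, 23.9% in Foxa2 and 22.0% in Nkx2-2, against 0.205% in Neurod1 and 0% in the other 5. The windows of 100 bases with the highest GC content are shown for the 3 GC-rich genes and, for contrast, for Rfx6 and St18, whose coding sequences had the lowest GC content. Each lies within 1 coding exon, and unbroken runs of at least 6 G or C bases are in capitals.
Insm1, chr2:146222428-146222527, plus strand, coding bases 163 to 262, 89% GC: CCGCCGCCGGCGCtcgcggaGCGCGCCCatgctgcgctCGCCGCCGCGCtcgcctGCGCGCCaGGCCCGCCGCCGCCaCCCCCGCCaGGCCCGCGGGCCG
Foxa2, chr2:148044553-148044652, minus strand, coding bases 260 to 359, 79% GC: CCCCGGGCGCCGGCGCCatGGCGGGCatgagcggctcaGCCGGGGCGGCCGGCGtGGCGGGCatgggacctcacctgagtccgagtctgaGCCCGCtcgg
Nkx2-2, chr2:147185845-147185944, minus strand, coding bases 75 to 174, 77% GC: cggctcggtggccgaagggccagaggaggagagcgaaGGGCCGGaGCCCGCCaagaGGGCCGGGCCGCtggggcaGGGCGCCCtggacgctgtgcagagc
Rfx6, chr10:51677881-51677980, plus strand, coding bases 72 to 171, 67% GC: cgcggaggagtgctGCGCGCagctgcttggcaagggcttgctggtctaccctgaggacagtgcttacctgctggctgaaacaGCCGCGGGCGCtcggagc
St18, chr1:6807554-6807653, plus strand, coding bases 1075 to 1174, 65% GC: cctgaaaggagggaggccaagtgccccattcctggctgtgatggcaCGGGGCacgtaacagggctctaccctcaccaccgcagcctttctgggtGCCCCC
Capitals cover 74 of the 100 bases in Insm1, 53 in Foxa2, 34 in Nkx2-2, 17 in Rfx6 and 12 in St18.

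The 4 single-cell libraries held 5982 cells and 10683494 to 18330975 unique molecular identifiers (UMIs, 1 per captured transcript), with a median of 4237 to 8338 UMIs per cell and 1 to 6 cell barcodes in common between any 2 libraries. After removal of 126 presumed doublets and of 1235 cells in non-endocrine clusters, 4021 of the remaining 4621 cells fell into 7 hormone classes by their level of Ppy, Gcg, Ins2 and Sst: the monohormonal classes Ppy+ (1426 cells), Gcg+ (613), Ins2+ (528) and Sst+ (249), and the bihormonal classes Ppy+Gcg+ (724), Ppy+Sst+ (358) and Ppy+Ins2+ (123). The 9 genes were kept out of the clustering, so their levels had no part in setting the classes. The Ppy+ class came almost whole from the YFP+ libraries (666 of 667 cells in experiment 1 and 750 of 759 in experiment 2) and the Gcg+, Ins2+ and Sst+ classes from the YFP- libraries (all but 1 cell), so that sorted fraction and class cannot be told apart within an experiment. UMIs were summed per class and experiment, giving 14 sums, and levels are CPM, the UMIs of a gene relative to all UMIs of the sum, after TMM scaling, which sets the bulk of genes equal across sums. Hormone transcripts take up different shares of the UMIs in each class, and without TMM the median of all genes shifted by -1.46 to 1.06 on the log2 scale between classes, against -0.05 to 0.03 with it.

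Among the 4 monohormonal classes, 8 of the 9 genes differed (edgeR quasi-likelihood F test, Benjamini-Hochberg adjusted p at most 0.05 and a range above 0.72 on the log2 scale), in a table where 39.9% of the 10312 genes tested did. Foxa2 was the exception: its adjusted p was 0.00995 but its classes spanned only 0.54 on the log2 scale. The ratio of the highest to the lowest class mean was 7.11 for Rfx6, 5.29 for Insm1, 3.32 for Isl1, 2.82 for Nkx2-2, 2.76 for Myt1, 2.24 for Neurod1, 1.81 for Pax6, 1.66 for St18 and 1.39 for Foxa2. The orders differed from gene to gene. Ppy+ cells held the lowest mean of Rfx6, Insm1, Myt1, St18 and Foxa2. Their values overlapped with those of Gcg+ cells for Insm1, Myt1 and St18, and with those of Sst+ cells for Foxa2. Nkx2-2 was highest in Ppy+ and Ins2+ cells, whose values overlapped. Of the 54 pairwise differences tested 23 passed, where between 12.1% and 26.5% of all genes tested passed in a single pair of classes.

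**Figure D1:**
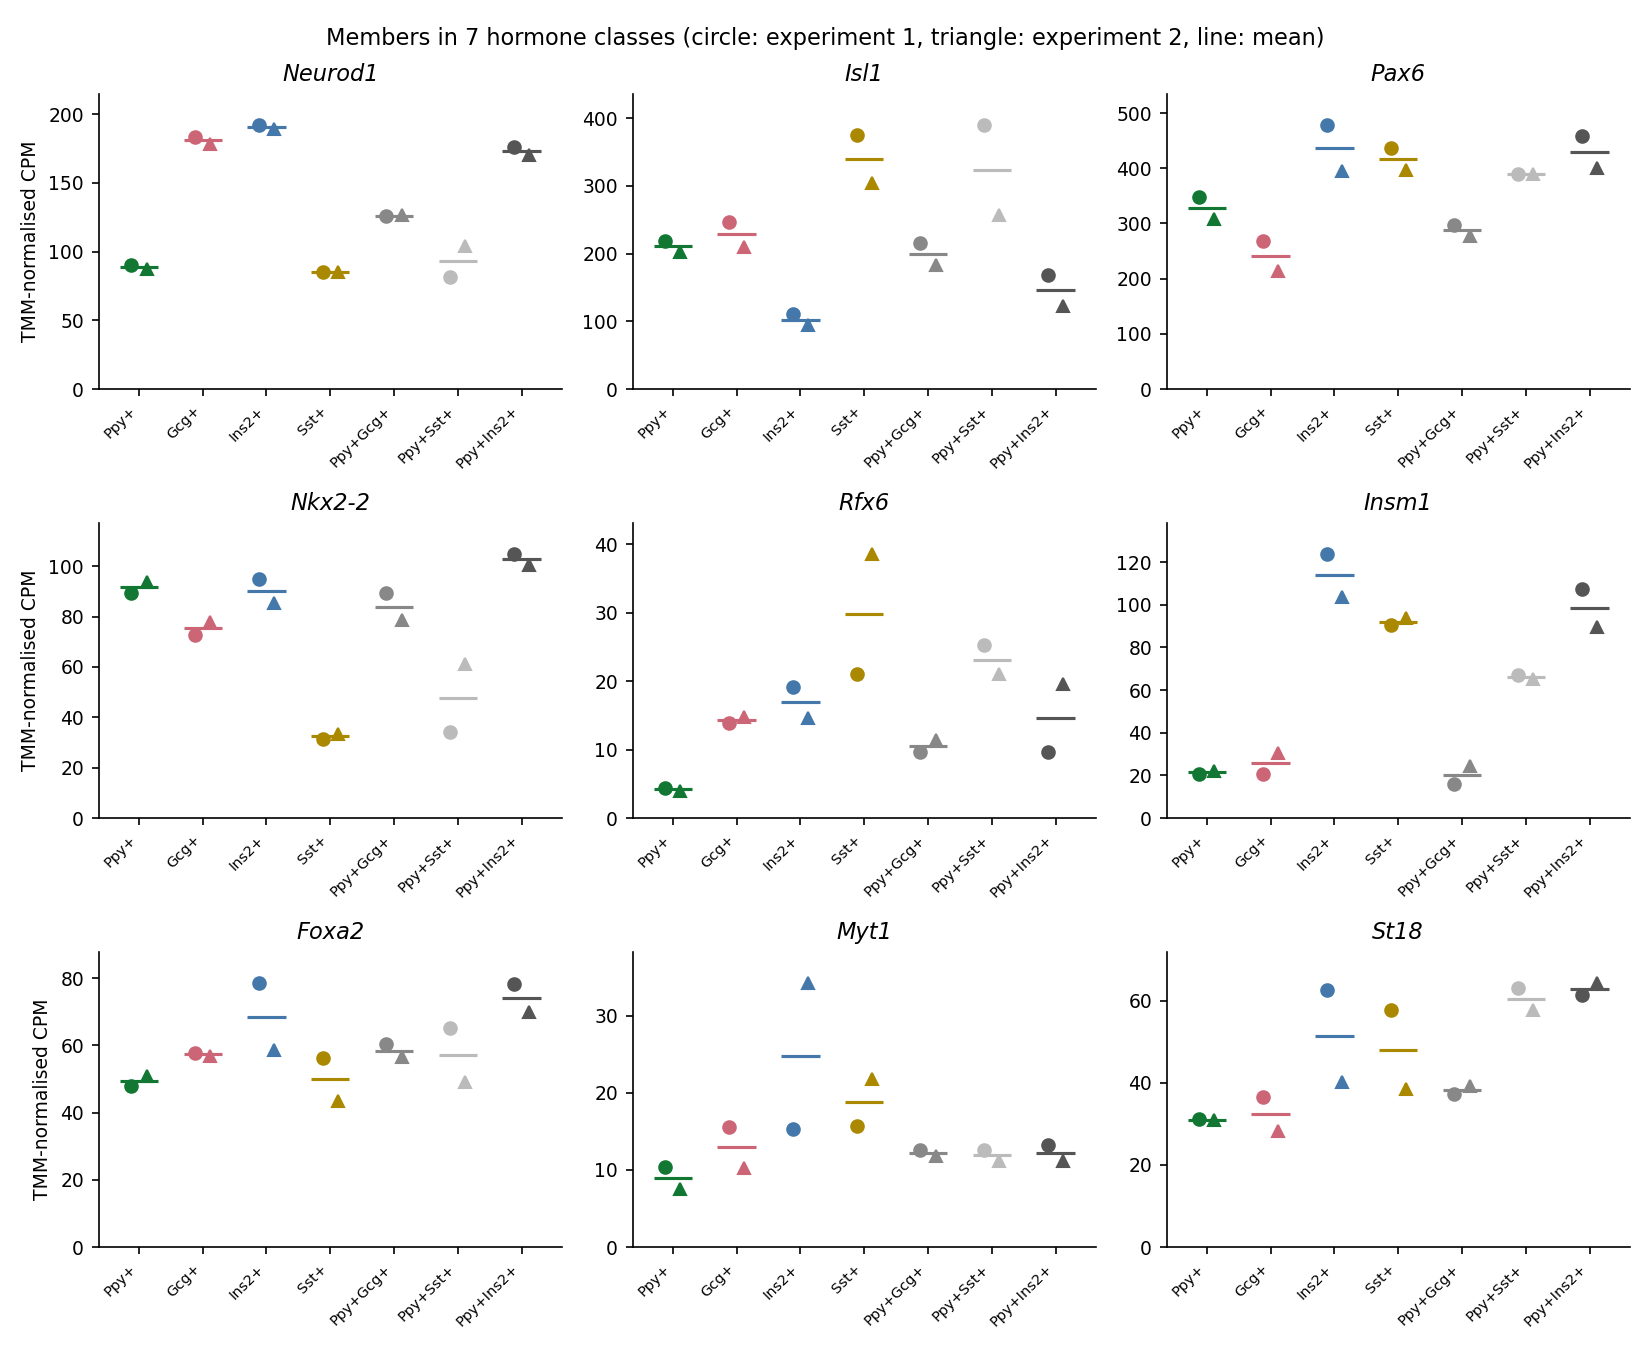
TMM-normalised CPM of each transcription factor (vertical axis) in the 7 hormone classes (horizontal axis), with a circle for experiment 1, a triangle for experiment 2 and a line for their mean. Rfx6 was lowest in Ppy+ cells in both experiments, Insm1 was low in Ppy+, Gcg+ and Ppy+Gcg+ cells, and Foxa2 stayed between 43.5 and 78.6 CPM throughout.

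Isl1 was highest in Sst+ cells. It stood at 375 CPM in experiment 1 and 305 CPM in experiment 2 in Sst+ cells, at 247 and 210 CPM in Gcg+ cells, at 219 and 202 CPM in Ppy+ cells and at 110.5 and 94.1 CPM in Ins2+ cells. The Ins2+ values lay below those of every other class in both experiments, whereas those of Gcg+ and Ppy+ cells overlapped. Ppy+ cells exceeded Ins2+ cells by 1.06 on the log2 scale (SE 0.134, adjusted p = 6.50e-08). Sst+ cells exceeded Ppy+ cells by less than the fold threshold, with a log2 fold change of Ppy+ over Sst+ of -0.68 (SE 0.131, adjusted p = 0.000221), and the difference between Ppy+ and Gcg+ cells was -0.11 (95% interval -0.36 to 0.13).

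Pax6, known as an activator of the glucagon and insulin genes, was lowest in Gcg+ cells. Its levels were 478 and 396 CPM in Ins2+ cells, 438 and 397 CPM in Sst+ cells, 348 and 307 CPM in Ppy+ cells and 268 and 214 CPM in Gcg+ cells. Ppy+ cells thus sat between the 2 higher classes and Gcg+ cells, overlapping with neither, while the values of Ins2+ and Sst+ cells overlapped. No difference of Ppy+ cells passed the fold threshold: it was 0.44 against Gcg+ cells (95% interval 0.21 to 0.68), -0.42 against Ins2+ cells (-0.66 to -0.18) and -0.35 against Sst+ cells (-0.60 to -0.10). Gcg+ cells were lower than Ins2+ cells by a log2 fold change of -0.86 (SE 0.120, adjusted p = 3.87e-07), a direction that flipped to 0.13 when counts were scaled by library totals alone, and lower than Sst+ cells by -0.79 (SE 0.127, adjusted p = 1.17e-05).

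Nkx2-2 gave the reverse of Isl1 for Sst+ cells, which were lowest. It reached 89.4 and 93.8 CPM in Ppy+ cells, 95 and 85.5 CPM in Ins2+ cells, 72.6 and 78.0 CPM in Gcg+ cells and 31.4 and 33.5 CPM in Sst+ cells, the last from 24 and 20 UMIs. The first 3 classes lay close together and all 6 of their values were above both Sst+ values. Ppy+ cells exceeded Sst+ cells by 1.5 on the log2 scale (SE 0.225, adjusted p = 4.67e-06), and differed from Gcg+ cells by 0.28 (95% interval 0.01 to 0.56) and from Ins2+ cells by -0.02 (-0.30 to 0.26). The annotation places the antisense genes Nkx2-2os and 6430503K07Rik over Nkx2-2, and Pax6os1 over Pax6.

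Neurod1, a direct activator of the insulin gene, split the classes into 2 levels. It stood at 90.3 and 87.6 CPM in Ppy+ cells and at 85.2 and 85.4 CPM in Sst+ cells. In Gcg+ cells it reached 184 and 178 CPM and in Ins2+ cells 192 and 189 CPM. The 2 levels did not overlap, and within each the 2 classes lay close together (Gcg+ over Ins2+ -0.08 on the log2 scale, 95% interval -0.32 to 0.16). Ppy+ cells were lower than Gcg+ cells by a log2 fold change of -1.02 (SE 0.117, adjusted p = 1.81e-08) and lower than Ins2+ cells by -1.10 (SE 0.121, adjusted p = 2.81e-09), while the difference from Sst+ cells was 0.06 (95% interval -0.27 to 0.39). The separation of Sst+ from Ins2+ cells depended on scaling: Ins2+ cells were higher by 1.16 with TMM, and the value was -0.29 with library totals alone. Neurod1 overlaps Cerkl on the same strand and Gm26755 on the opposite strand, so some of its reads are uncertain.

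Rfx6, which lies upstream of hormone gene expression in the endocrine lineage, showed the widest range and its lowest level in γ-cells. Ppy+ cells held 21 Rfx6 UMIs among 667 cells in experiment 1 and 18 among 759 cells in experiment 2, or 4.37 and 4.00 CPM. Gcg+ cells had 13.9 and 14.7 CPM, Ins2+ cells 19.1 and 14.7 CPM and Sst+ cells 20.96 and 38.5 CPM. Both Ppy+ values lay below all 6 others. The log2 fold change of Ppy+ cells was -1.76 against Gcg+ cells (SE 0.288, adjusted p = 1.52e-05), -2.15 against Ins2+ cells (SE 0.279, adjusted p = 1.08e-07) and -2.77 against Sst+ cells (SE 0.360, adjusted p = 3.51e-07). In cells thinned to 1000 UMIs each, the difference from Gcg+ cells was -2.35, and that from Ins2+ cells was -2.45 and no longer passed. Gcg+ cells were also lower than Sst+ cells (-1.01, adjusted p = 0.024), but this difference missed the threshold in edgeR without the experiment as a block, with DESeq2, without the cluster requirement and in thinned cells.

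The share of cells with at least 1 Rfx6 UMI was 3.00% and 2.37% in Ppy+ cells of experiments 1 and 2, 12.5% and 12.3% in Gcg+ cells, 19.8% and 12.9% in Ins2+ cells and 11.2% and 16.1% in Sst+ cells. These shares follow depth as well as level, since the median cell held 6828 UMIs in the Ppy+ class, 7167 in Gcg+, 22490 in Ins2+ and 3647 in Sst+. After thinning every cell to 1000 UMIs, which no cell fell short of, the shares were 0.30% and 0.395% in Ppy+ cells, 2.88% and 1.99% in Gcg+ cells, 1.15% and 2.15% in Ins2+ cells and 3.20% and 4.03% in Sst+ cells, Ppy+ cells remaining below the other classes in both experiments. In plain CPM over both experiments, Ppy+ cells held 3.53 CPM (95% exact Poisson interval 2.51 to 4.82). B-lineage cells, at a median of 8547 UMIs per cell, held 1 Rfx6 UMI in 183 cells, or 0.544 CPM (0.0138 to 3.03), myeloid cells 2 UMIs in 237 cells, or 2.78 CPM (0.336 to 10.02), and acinar cells 8 UMIs in 214 cells, or 5.19 CPM (2.24 to 10.2). Endothelial cells had no Rfx6 UMI in 259 cells, where 3 counts would have given 5.17 CPM, a limit above the Ppy+ level. T-lineage cells held 10 UMIs in 57 cells, or 15.9 CPM (7.63 to 29.3), and the goblet cluster 2 UMIs in 30 cells, or 14.8 CPM (1.79 to 53.4). The intervals of B-lineage, myeloid, acinar and goblet cells overlap with that of Ppy+ cells, and that of T-lineage cells lies above it. The part of free RNA in the Rfx6 UMIs of Ppy+ cells was not tested.

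Insm1, a repressor that acts early in endocrine differentiation, fell into 2 levels of another kind than Neurod1. It stood at 20.8 and 22.2 CPM in Ppy+ cells (100 UMIs in each experiment) and at 20.7 and 30.5 CPM in Gcg+ cells. In Ins2+ cells it reached 124 and 104 CPM and in Sst+ cells 90.4 and 93.8 CPM. The 2 low classes did not overlap with the 2 high ones. Ppy+ cells were lower than Ins2+ cells by a log2 fold change of -2.47 (SE 0.158, adjusted p = 3.03e-15) and lower than Sst+ cells by -2.10 (SE 0.208, adjusted p = 1.01e-09), and differed from Gcg+ cells by -0.24 (95% interval -0.63 to 0.15). With the library as a block, these values were -1.73 against Ins2+ and -1.35 against Sst+ cells, and both still passed. Ppy+ cells lay in other sorted fractions than Ins2+ and Sst+ cells, so this fit links them only through the bihormonal classes. It therefore cannot separate class from sorted fraction. An Insm1 UMI was found in 13.2% and 11.9% of Ppy+ cells and in 40.8% and 33.1% of Sst+ cells, or in 2.10% and 2.11% against 13.6% and 18.5% after thinning. In endothelial cells, before thinning, 1 of 77 cells in experiment 1 and 0 of 182 in experiment 2 had an Insm1 UMI, and none had one after thinning. In plain CPM over both experiments, Ppy+ cells held 18.1 CPM (95% exact Poisson interval 15.7 to 20.8). Acinar cells held 14.3 CPM (8.95 to 21.6), T-lineage cells 23.9 CPM (13.4 to 39.4) and the goblet cluster 44.4 CPM (16.3 to 96.6), intervals that overlap with that of Ppy+ cells. B-lineage, stromal, myeloid and endothelial cells held 2.18, 1.37, 5.55 and 1.72 CPM. The part of free RNA in these UMIs was not tested.

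Myt1 and St18 both had their lowest mean in Ppy+ cells. Myt1 stood at 10.4 and 7.56 CPM in Ppy+ cells, 15.6 and 10.3 CPM in Gcg+ cells, 15.3 and 34.2 CPM in Ins2+ cells and 15.7 and 21.8 CPM in Sst+ cells. Ppy+ cells were lower than Ins2+ cells (log2 fold change -1.05, SE 0.273, adjusted p = 0.00248), and the value was -2.16 without experiment 1 and -0.57 without experiment 2. The difference of Ppy+ from Sst+ cells, -1.02, did not pass (95% interval -1.85 to -0.19, adjusted p = 0.094). St18 stood at 31.2 and 30.9 CPM in Ppy+ cells, 36.6 and 28.3 CPM in Gcg+ cells, 62.7 and 40.3 CPM in Ins2+ cells and 57.6 and 38.5 CPM in Sst+ cells. Its Ppy+ values overlapped with those of Gcg+ cells only. St18 was lower in Ppy+ than in Ins2+ cells (log2 fold change -0.84, SE 0.156, adjusted p = 4.75e-05), and the value was -0.38 without experiment 1. Against Sst+ cells the St18 difference of -0.65 (adjusted p = 0.0444) was under the fold threshold. Gcg+ cells were also lower than Ins2+ cells in St18 by -0.77, which became 0.29 with library totals alone.

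Foxa2 differed least. It stood at 47.8 and 50.9 CPM in Ppy+ cells, 57.7 and 57.0 CPM in Gcg+ cells, 78.6 and 58.6 CPM in Ins2+ cells and 56.3 and 43.5 CPM in Sst+ cells. None of its 6 pairwise differences passed. The difference between Ppy+ and Sst+ cells was -0.03 (95% interval -0.43 to 0.38), that between Ppy+ and Gcg+ cells -0.21 (-0.49 to 0.06) and that between Ppy+ and Ins2+ cells -0.54 (-0.82 to -0.26), the last with an adjusted p of 0.00211 but under the fold threshold.

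By pair of classes, the fewest of the 9 genes passed between Ppy+ and Gcg+ cells: 2 were lower in Ppy+ cells (Neurod1 and Rfx6) and none higher, beside 12.8% of all genes tested. Against Ins2+ cells 6 of 9 differed, Isl1 higher and Neurod1, Insm1, Rfx6, Myt1 and St18 lower, beside 26.5% of all genes. Against Sst+ cells 3 of 9 differed, Nkx2-2 higher and Insm1 and Rfx6 lower, beside 12.2%. These 3 comparisons share the Ppy+ sums. With library totals alone, the differences from Ins2+ cells of Neurod1 (-0.50), Myt1 (-0.44) and St18 (-0.17) and that of Nkx2-2 from Sst+ cells (0.65) no longer passed. In thinned cells those of Isl1 (0.69), St18 (-0.53) and Rfx6 from Ins2+ cells did not pass. Only 2 of the 9 genes passed against Ins2+ cells after thinning, so Neurod1, Insm1 and Myt1 did not all keep their calls. Between the other classes, 4 of 9 differed for Gcg+ against Ins2+ cells (Isl1 higher, Pax6, Insm1 and St18 lower), beside 22.5% of all genes, 5 of 9 for Gcg+ against Sst+ cells (Neurod1 and Nkx2-2 higher, Pax6, Insm1 and Rfx6 lower), beside 12.1%, and 3 of 9 for Ins2+ against Sst+ cells (Neurod1 and Nkx2-2 higher, Isl1 lower), beside 15.4%. Of these, thinning ended the calls of St18 (-0.69) for Gcg+ against Ins2+, Pax6 (-0.61) and Nkx2-2 (1.01) for Gcg+ against Sst+ and Nkx2-2 (1.2) for Ins2+ against Sst+, and library totals alone those of Neurod1 (0.64) for Gcg+ against Sst+ and Nkx2-2 (0.04) for Ins2+ against Sst+. St18 for Gcg+ against Ins2+ also missed the fold threshold with DESeq2 (-0.71) and with upper-quartile scaling (-0.67), was -0.51 without experiment 1 and turned to 0.29 with library totals alone. The median log2 fold change of the 9 genes was -0.21 against Gcg+, -0.84 against Ins2+ and -0.65 against Sst+ cells for the Ppy+ class, where the median of all genes was between -0.01 and 0.02.

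The bihormonal classes were compared with the Ppy+ class, whose sums all 3 comparisons share. A bihormonal cell was kept when its cluster was high in either of its hormones. The classes can therefore include cells of clusters high in Gcg, Sst or Ins2 that also passed the Ppy threshold. In Ppy+Gcg+ cells 1 of 9 genes was higher, beside 2.72% of all genes. Rfx6 reached 9.67 and 11.5 CPM, from 37 UMIs in each experiment, against 4.37 and 4.00 CPM in Ppy+ cells. The log2 fold change was 1.32 (SE 0.295, adjusted p = 0.00435), but it missed the threshold without the experiment as a block and was -0.0022 in cells thinned to 1000 UMIs, where 0.265% and 0.576% of Ppy+Gcg+ cells kept an Rfx6 UMI. Neurod1 stood between the Ppy+ and Gcg+ levels at 126 and 127 CPM, a difference from Ppy+ cells of 0.50 (adjusted p = 0.00641) under the fold threshold.

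The cluster high in Sst had a mean Ppy level of 3.90 on the natural-log scale, above the Ppy threshold of 3.16. The median cell held 3880 UMIs in the Ppy+Sst+ class, 3647 in Sst+ and 6828 in Ppy+. How far the Ppy+Sst+ class consists of δ-cells with some Ppy was not tested, so its differences from Ppy+ cells may be those of δ-cells. In Ppy+Sst+ cells 4 of 9 genes differed, beside 7.81% of all genes. Insm1 stood at 67.0 and 65.0 CPM and was higher by 1.61 (SE 0.190, adjusted p = 7.56e-08), Rfx6 at 25.3 and 21 CPM and was higher by 2.42 (SE 0.315, adjusted p = 5.49e-07), and St18 at 63.2 and 57.8 CPM and was higher by 0.96 (SE 0.175, adjusted p = 0.000142). Nkx2-2 stood at 34.0 and 61.0 CPM and was lower (log2 fold change -0.89, SE 0.169, adjusted p = 0.000269), with -0.61 without experiment 1, -1.38 without experiment 2 and -2.11 in thinned cells. In the fits that ended a call, St18 was at 0.71 in cells thinned to 1000 UMIs and Nkx2-2 at -0.27 with library totals alone. Of the clusters high in Ins2, one of 283 cells had a mean Ppy level of 3.96, also above the Ppy threshold, and one of 493 cells 0.80. How far the Ppy+Ins2+ class consists of β-cells with some Ppy was not tested. Its differences from Ppy+ cells may therefore be those of β-cells. In Ppy+Ins2+ cells, the smallest class, 4 of 9 genes were higher and none lower, beside 7.36% of all genes. Insm1 stood at 107 and 89.4 CPM (2.25 on the log2 scale, SE 0.213, adjusted p = 5.93e-10), Neurod1 at 176 and 170.5 CPM (0.97, SE 0.147, adjusted p = 9.47e-06) and St18 at 61.4 and 64.3 CPM (0.97, SE 0.220, adjusted p = 0.00261). Rfx6 stood at 9.64 and 19.6 CPM from 8 and 7 UMIs (1.6, SE 0.490, adjusted p = 0.0324) and did not pass without the experiment as a block or without the cluster requirement, with 2.29 without experiment 1. In thinned cells St18 (0.99), Neurod1 (0.74) and Rfx6 (0.91) no longer passed in Ppy+Ins2+ cells. With no doublets removed, as many of the 9 genes passed in each of the 3 bihormonal comparisons. The Ppy+Gcg+, Ppy+Sst+ and Ppy+Ins2+ classes then held 719, 375 and 123 cells, against 724, 358 and 123. Since the classes hardly changed in size, this fit cannot show how far doublets shape them.

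Both YFP fractions held Ppy+Sst+ cells. In plain CPM, without TMM scaling, Insm1 stood at 68.5 and 66.5 CPM in the YFP+ cells and at 123 and 182 CPM in the YFP- cells of that class, and St18 at 66.3 and 64.5 CPM in the YFP+ and at 113 and 130 CPM in the YFP- cells. Nkx2-2 ran the other way, at 55.6 and 84.3 CPM in the YFP+ cells and at 29.9 and 45.4 CPM in the YFP- cells, the latter from 9 and 8 UMIs. Rfx6 stood at 34.2 and 25.8 CPM in the YFP+ cells and at 33.2 and 34.0 CPM in the YFP- cells, values that overlapped. With the library as a block, all 4 genes still passed in Ppy+Sst+ cells.

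Across the single cells, the summed plain CPM of the 9 genes was 1684 in Sst+, 1387 in Ppy+Sst+, 970 in Ppy+Ins2+, 967 in Gcg+, 873 in Ppy+Gcg+, 703 in Ppy+ and 600 in Ins2+ cells. Plain CPM also depends on the share of UMIs that hormone transcripts take. The TMM factors were 0.508 and 0.632 in the Ins2+ sums and 1.44 and 1.62 in the Sst+ sums. The order of the hormone classes in plain CPM therefore need not hold after TMM scaling. The median Ppy+ cell had a UMI for 3 of the 9 genes, and between 1.5% and 5.14% of Ppy+ cells in an experiment had none. Outside the endocrine cells the sum was 24.1 CPM in endothelial cells (leading genes Fabp4 and Rbp7), 26.7 CPM in B-lineage cells (Jchain and Igkc), 61.7 CPM in stromal cells (Dcn and Col3a1) and 72.2 CPM in myeloid cells (Retnla and Apoe). The stromal cells held 26 Isl1 UMIs in 24 cells, or 35.7 CPM, and no UMI of Foxa2, Rfx6 or St18. Acinar cells, led by Ctrb1, held 387 CPM and cells of the T lineage, led by Gzma and Ccl5, 616 CPM, and in both the endocrine granule gene Chga was also present, at 661 and 950 CPM. The YFP+ cells of these clusters held more of most of the 9 genes than the YFP- cells. Pax6 stood at 413 and 257 CPM in the 14 and 32 YFP+ acinar cells of experiments 1 and 2 and at 44.3 and 103 CPM in the 87 and 81 YFP- ones, and in the T lineage of experiment 2 at 294 CPM in 21 YFP+ and 111 CPM in 21 YFP- cells. Foxa2 in acinar cells ran the other way, at 43.5 and 44.5 CPM in YFP+ and 91.3 and 74.5 CPM in YFP- cells. With no doublets removed, the clusters themselves changed: the T-lineage cluster then held 133 rather than 57 cells, was led also by Pclaf, Top2a and Ms4a1, and its sum was 256 CPM. The part of RNA from endocrine cells in these 2 values was not tested.

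**Figure D2:**
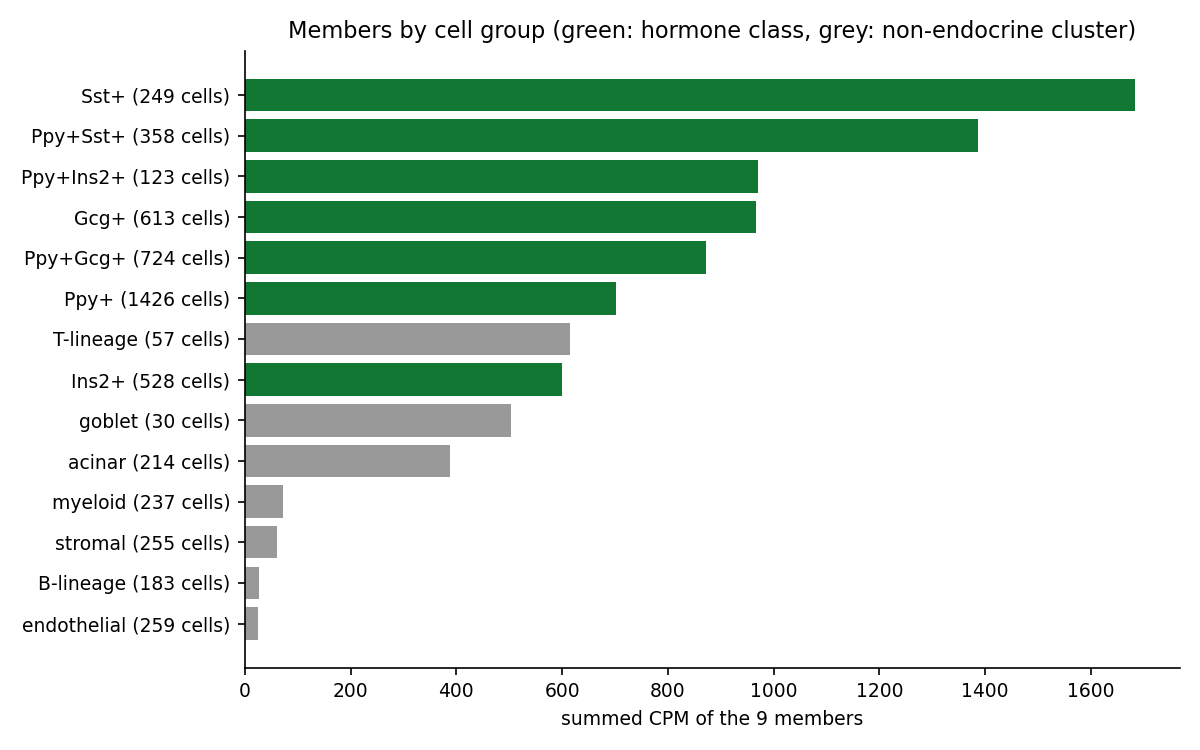
Summed CPM of the 9 transcription factors (horizontal axis, plain CPM over all cells of a group) in the 7 hormone classes (green) and the 7 non-endocrine groups of clusters (grey), with cell numbers. Endothelial, B-lineage, stromal and myeloid cells lay between 24.1 and 72.2 CPM. Acinar cells stood at 387, the goblet cluster at 503 and T-lineage cells at 616 CPM. The hormone classes ranged from 599.7 CPM in Ins2+ cells, below the T-lineage value, to 1684 CPM in Sst+ cells. These values carry no TMM scaling, after which the order of the hormone classes need not hold.

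The bulk table gave a second view of γ- and δ-cells. The γ libraries held 14633838 to 31784878 counts and the δ libraries 7641916 to 11773598. Their hormones followed the labels: Ppy was at 87360 to 116400 CPM in γ and 10890 to 16500 CPM in δ libraries, and Sst at 7119 to 11510 and 69800 to 101100 CPM. The γ libraries also contained Gcg at 43970 to 83710 CPM and Ins2 at 5225 to 15420 CPM. Summed over 18 acinar markers, of which none was at 0, the level was 2713 to 15490 CPM in γ and 30580 to 128600 CPM in δ libraries, over 20 ductal markers 1796 to 2171 and 3107 to 4950 CPM, and over 16 stromal markers 1387 to 5915 and 109 to 1513 CPM. Leaving the acinar markers out of the counts changed no call among the 9 genes. That step takes away no acinar RNA counted for the 9 genes themselves, so it cannot show what such RNA adds to them. In sorted bulk samples, fewer cells of a type and less RNA per cell cannot be told apart.

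In bulk, 6 of the 9 genes differed between γ- and δ-cells (edgeR quasi-likelihood test, Benjamini-Hochberg adjusted p at most 0.05 and a log2 fold change of at least 1 in size), 3 higher and 3 lower in γ, beside 35% of the 17926 genes tested. Foxa2, Nkx2-2 and Insm1 were higher in γ-cells, and Isl1, Myt1 and Rfx6 lower.

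Bulk levels are plain CPM, whereas the fold changes include TMM scaling, whose factors were 0.886 to 0.963 in γ and 1.06 to 1.16 in δ libraries. Foxa2 stood at 106, 126, 114, 134 and 133 CPM in γ libraries 1 to 5 and at 7.20, 9.34 and 12.1 CPM in δ libraries 1 to 3. Nkx2-2 stood at 133, 142.5, 121, 156 and 149 CPM in γ and at 20.5, 26.2 and 27.9 CPM in δ libraries, and Insm1 at 87.6, 108, 88.7, 109 and 117 CPM and at 18.1, 23.2 and 22.0 CPM. In all 3, every γ library was above every δ library by a wide margin. The log2 fold changes were 3.94 for Foxa2 (SE 0.191, adjusted p = 8.30e-08), 2.77 for Nkx2-2 (SE 0.155, adjusted p = 2.14e-07) and 2.54 for Insm1 (SE 0.168, adjusted p = 6.59e-07).

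Isl1 stood at 244, 225, 232, 210 and 235 CPM in the γ libraries and at 539, 491.5 and 774 CPM in the δ libraries. Rfx6 stood at 88.2, 74.6, 72.9, 78.8 and 89.4 CPM in γ and at 248, 238 and 311 CPM in δ libraries, and Myt1 at 38.6, 32.9, 29.7, 29.7 and 31.0 CPM and at 81.4, 72.5 and 110.5 CPM. Every δ library was above every γ library, and δ library 3 was the highest for each of the 3 genes. The log2 fold changes were -1.44 for Rfx6 (SE 0.113, adjusted p = 2.24e-06), -1.16 for Myt1 (SE 0.137, adjusted p = 4.56e-05) and -1.11 for Isl1 (SE 0.137, adjusted p = 6.42e-05). Without δ replicate 3, Isl1 at -0.92 and Myt1 at -0.998 no longer reached the fold threshold.

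Neurod1 stood at 91.7, 102, 70.8, 102 and 95.5 CPM in γ and at 149, 151 and 180 CPM in δ libraries, and St18 at 184, 151, 175, 168 and 149 CPM in γ and 250.1, 239 and 259 CPM in δ libraries. Neither set overlapped, but both changes were under the fold threshold, at -0.51 for Neurod1 (95% interval -0.83 to -0.20, adjusted p = 0.0109) and -0.32 for St18 (-0.53 to -0.11, adjusted p = 0.0145). Pax6 stood at 229, 204, 200, 259 and 208 CPM in γ and at 232, 234 and 290.2 CPM in δ libraries. Its mean was higher in δ in plain CPM (252 against 220) and higher in γ after TMM scaling (236 against 224), with a log2 fold change of 0.08 (95% interval -0.19 to 0.34, adjusted p = 0.613). On both scales the libraries of the 2 groups overlapped for Pax6 and did not for the other 8 genes, beside 57.5% of all genes tested that did not overlap in plain CPM and 54.2% after TMM scaling. The antisense gene Pax6os1 was at 2.87 to 5.92 CPM in γ and 14.1 to 20.04 CPM in δ libraries, and Nkx2-2os at 0 to 0.523 CPM over all 8.

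**Figure D3:**
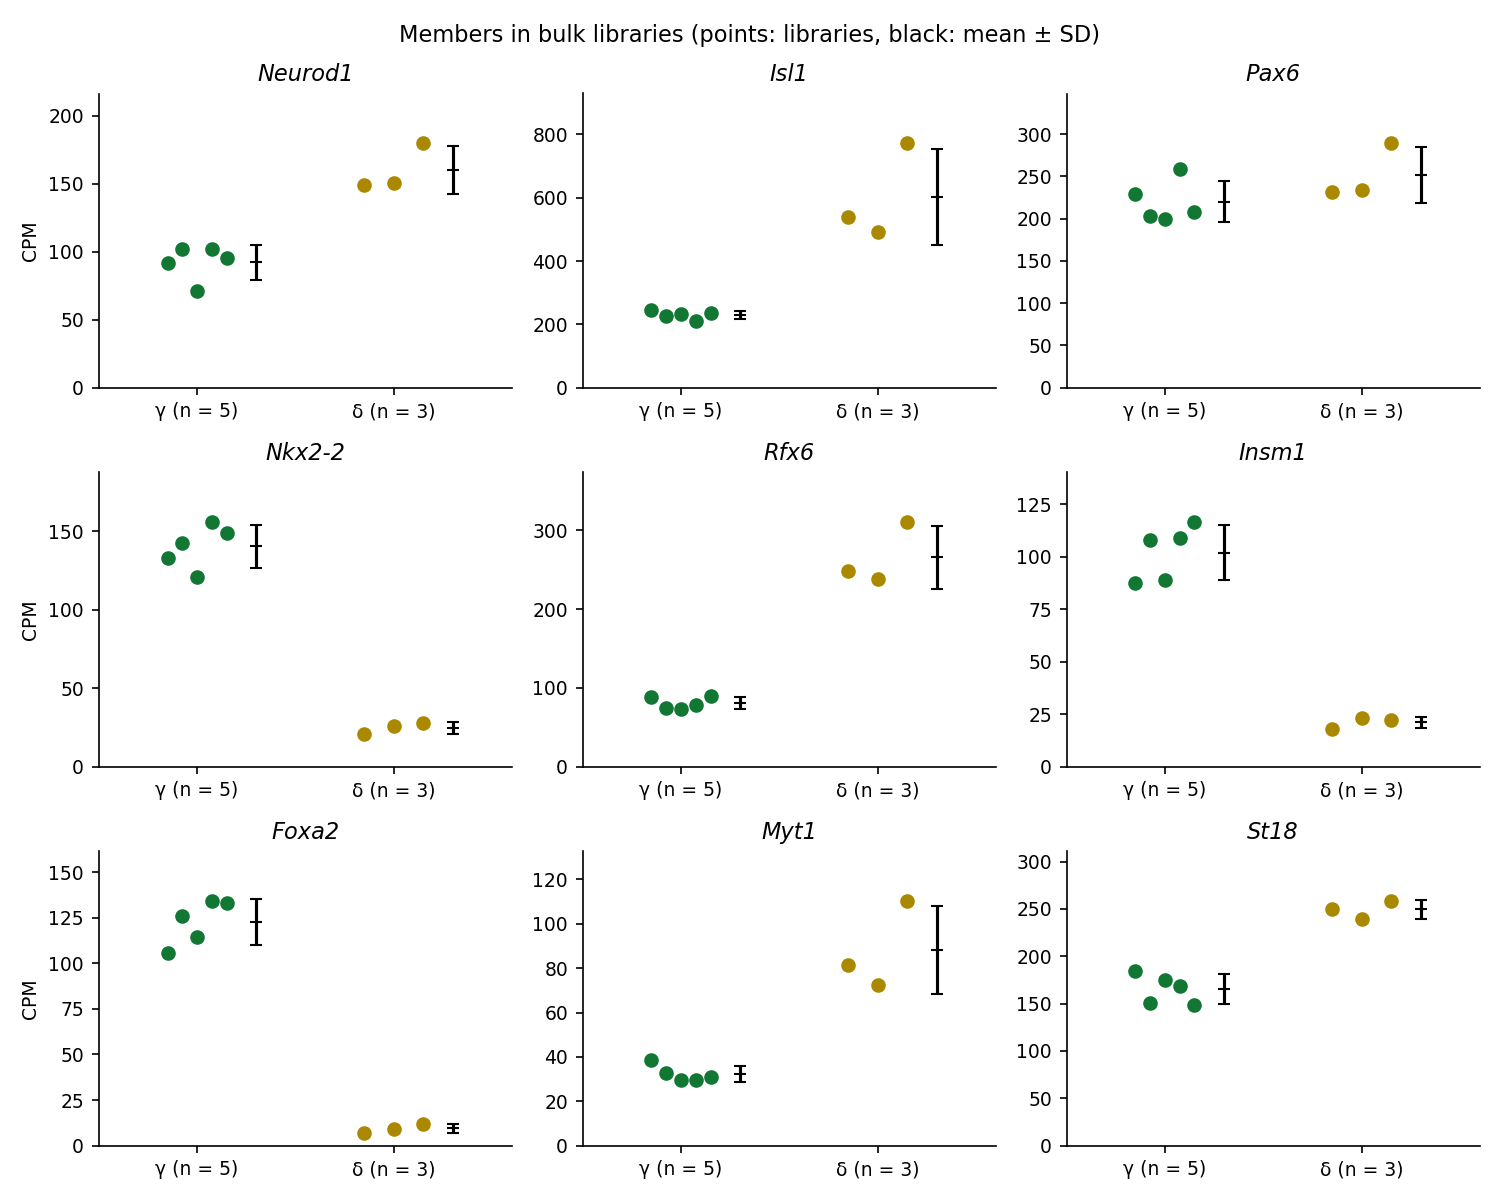
Plain CPM of each transcription factor (vertical axis) in the 5 γ and 3 δ bulk libraries (points), with the mean and SD in black. Foxa2, Nkx2-2 and Insm1 were higher in every γ library, Pax6 overlapped, and the other 5 were higher in every δ library, where 57.5% of all genes tested did not overlap between the groups.

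Plain CPM divided by the kilobases of all annotated exons of a gene gives a level per length, which still depends on the base composition of a gene and on which of its transcripts are used. In γ libraries the order of means was Isl1 (57.9 ± 3.20 SD, n = 5), Foxa2 (51.8 ± 5.23), Nkx2-2 (48.8 ± 4.77), Neurod1 (33.9 ± 4.72), Insm1 (32.9 ± 4.21), St18 (25.6 ± 2.38), Rfx6 (20.2 ± 1.90), Pax6 (18.8 ± 2.09) and Myt1 (4.51 ± 0.515). Foxa2 and Nkx2-2, Neurod1 and Insm1, and Rfx6 and Pax6 lay within an SD of each other. With the longest transcript in place of all exons, Pax6, whose exons span 11694 bases against 4427 in its longest transcript, moved from place 8 to place 4, at 49.7 CPM per kilobase, while Isl1 stayed first and Myt1 last. In δ libraries Isl1 was first (152 ± 38.3 SD, n = 3) and Rfx6 second (66.3 ± 9.92), while Nkx2-2 (8.64 ± 1.33), Insm1 (6.80 ± 0.867) and Foxa2 (4.03 ± 1.05) took the last 3 places, with either length. These 3 were also the genes with the most GC-rich coding sequence.

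The bulk and single-cell assays gave values of the same sign for Nkx2-2, Rfx6, Isl1, Myt1 and St18. Insm1 passed the test in both assays with opposite signs, with a log2 fold change of 2.54 in bulk γ over δ and -2.10 in Ppy+ over Sst+ single cells. Foxa2 went from 3.94 in bulk to -0.03 in single cells. The bulk value exceeded the single-cell one by 4.64 for Insm1, 3.97 for Foxa2, 1.32 for Rfx6 and 1.27 for Nkx2-2, and by -0.57 to 0.43 for the other 5. These differences between assays were not tested, since the assays differ in sorting, chemistry and unit. They also compare unlike sets of cells. The bulk libraries are sorted YFP+ cells as a whole, with Gcg and Ins2 in γ and Ppy in δ libraries. The single-cell values are those of the monohormonal classes only. The bulk assay spread its reads over whole transcripts, while the single-cell assay counted 3′ ends.

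**Figure D4:**
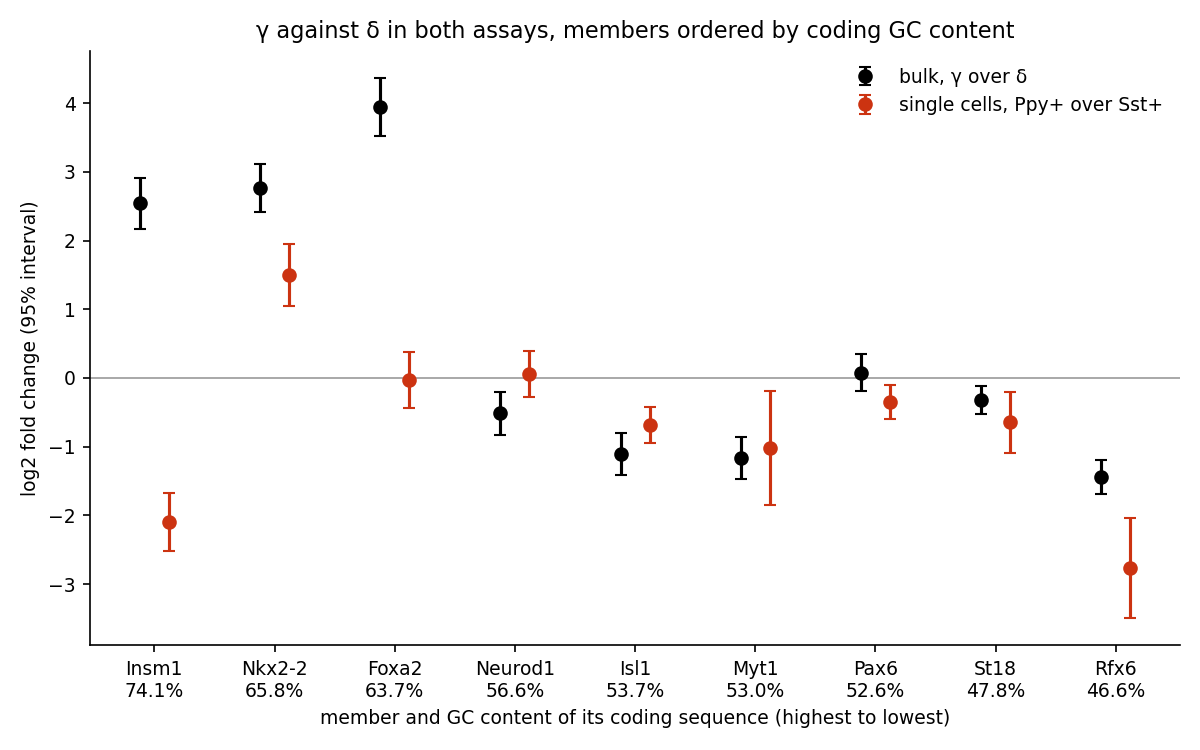
Log2 fold change with its 95% interval (vertical axis) of γ over δ bulk libraries (black) and of Ppy+ over Sst+ single cells (red) for the 9 transcription factors, ordered by the GC content of their coding sequence (horizontal axis). The 3 with the highest GC content, Insm1, Nkx2-2 and Foxa2, were the only ones clearly above 0 in bulk, and Insm1 and Foxa2 were far apart between the assays.

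GC content moved with the bulk comparison over the whole table. Among the 94.3% of tested genes matched to a transcript, the median log2 fold change of γ over δ was -0.56 for the 1129 genes with a longest transcript under 40% GC, -0.31 at 40 to 45%, -0.13 at 45 to 50%, 0.03 at 50 to 55%, 0.42 at 55 to 60% and 1.96 for the 686 genes at 60% or more. Of these 686 genes, 62.2% passed as higher in γ and 3.50% as lower. In the single-cell comparison of Ppy+ with Sst+ cells, where 99.1% of tested genes were matched, the medians of the same classes lay between -0.05 and 0.07, with 0.04 for the 360 genes at 60% or more. The longest transcript of Insm1 was 62.0% GC, of Foxa2 57.0% and of Nkx2-2 55.7%, and those of the other 6 were between 41.7% and 49.3%.

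**Figure D5:**
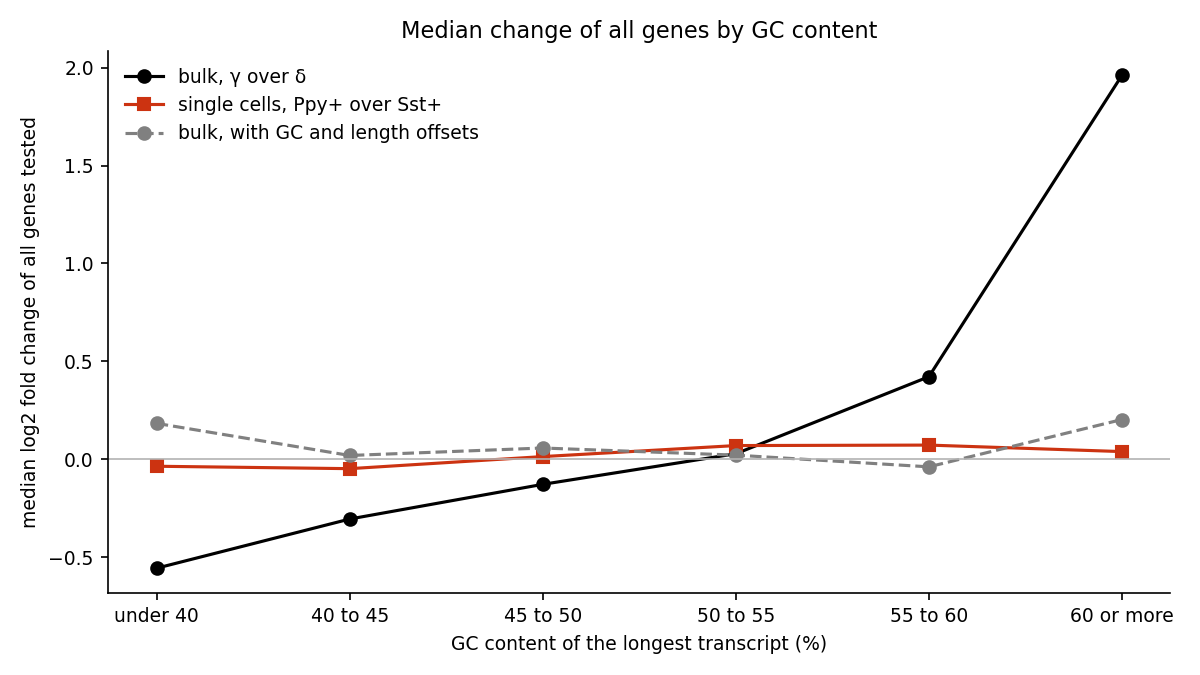
Median log2 fold change of all genes tested (vertical axis) by GC content of the longest transcript (horizontal axis, percent) for bulk γ over δ (black), for bulk with GC and length offsets (grey, dashed) and for single-cell Ppy+ over Sst+ (red). The bulk median rose from -0.56 to 1.96, the single-cell median stayed between -0.05 and 0.07 and the offset median between -0.04 and 0.20. The offsets take out a trend with GC content by construction.

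When offsets for GC content and length, estimated within each library, were added to the bulk fit after the data had been seen, the class medians lay between -0.04 and 0.20. Such offsets take out any trend with GC content or length between the libraries, whatever its source. Flatter medians were therefore built into this fit, and it cannot tell where the trend came from. The log2 fold change of Insm1 fell from 2.54 to 0.63 (SE 0.158, adjusted p = 0.00754) and no longer reached the threshold. Foxa2 at 3.63 (SE 0.179, adjusted p = 1.34e-07) and Nkx2-2 at 2.64 (SE 0.156, adjusted p = 4.00e-07) still passed as higher in γ. Rfx6 at -1.23 and Myt1 at -1.36 still passed as lower, while Isl1 at -0.75 (adjusted p = 0.00129) did not. With offsets 4 of the 9 genes passed, 2 in each direction, against 6 without offsets. The share of 35% of all genes tested belongs to the fit without offsets, and the share with offsets is not given here. How far base composition, read layout or the cells themselves account for the bulk values was not tested.

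Genes known to work with the 9 factors were counted from lists. Of 25 cofactors and inhibitors, 21 could be tested in single cells. Relative to Gcg+ cells, 4 were higher and 4 lower in Ppy+ cells (12.8% of all genes tested passed in either direction), relative to Ins2+ cells 4 and 3 (26.5%), and relative to Sst+ cells 1 and 3 (12.2%). Tcf4, an E protein that pairs with Neurod1, stood at 25.1 and 22.0 plain CPM in Ppy+ cells and at 188 and 196 CPM in Sst+ cells, with a log2 fold change of -2.17 (SE 0.174, adjusted p = 4.76e-12). Ssbp2, a partner of the Isl1 cofactor Ldb1, stood at 50.3 and 35.2 CPM in Ppy+ cells and at 8.71 and 5.38 CPM in Ins2+ cells (1.83, SE 0.176, adjusted p = 1.48e-10). In bulk 10 of 25 were higher in γ and 2 lower, beside 35% of all genes in either direction, with a list median of 0.69 beside -0.06 for all genes, and the largest changes were those of Ssbp4 (4.89), Tle1 (3.53), Aes (3.52), Tcf3 (3.23), Hdac2 (3.19) and Ldb1 (2.31). Ssbp4, like Insm1, had the opposite sign in single cells (-1.41 for Ppy+ over Sst+, SE 0.354, adjusted p = 0.0046), at 6.27 and 5.83 CPM in Ppy+ and 24.4 and 35.0 CPM in Sst+ cells.

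Of 24 paralogs, 7 passed the filter on low counts in single cells and 11 in bulk. Foxa3, a relative of Foxa2, was higher in Ppy+ than in Ins2+ cells (1.31, SE 0.211, adjusted p = 4.85e-06), and Rfx3, a relative of Rfx6, was lower in Ppy+ than in Sst+ cells (-1.26, SE 0.279, adjusted p = 0.00122). In bulk 3 of the 11 were higher in γ, among them Rfx1 (1.39) and Rfx5 (1.29), and 1 was lower, Myt1l (-1.12), again beside 35% of all genes.

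Of 13 regulators restricted to single islet cell types, 12 were tested in single cells. Hhex, which maintains δ-cells, had 2 and 7 UMIs in Ppy+ cells against 102 and 95 in Sst+ cells, at 191 and 256 plain CPM in the latter. Mafa, a β-cell regulator, had no UMI in 1426 Ppy+ cells, where 3 counts would have been 0.522 and 0.565 CPM in the 2 experiments, and stood at 179 and 191 CPM in Ins2+ cells. Relative to Sst+ cells 2 of the 12 were higher in Ppy+ cells and 4 lower (12.2% of all genes passed), relative to Gcg+ cells 3 and 5 (12.8%), and relative to Ins2+ cells 4 and 4 (26.5%). In bulk, where 35% of all genes passed, 10 of 13 were higher in γ and 2 lower, the 2 being Neurog3 (-2.59) and Hhex (-2.23), with a list median of 5.39.

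Of 15 genes known as targets of the factors in islets, 13 were tested in single cells. In Ppy+ cells none was higher and 7 were lower than in Ins2+ cells (26.5% of all genes passed), none higher and 3 lower than in Sst+ cells (12.2%), and 2 higher and 3 lower than in Gcg+ cells (12.8%). Slc30a8, the zinc transporter of secretory granules, stood at 14.3 and 14.7 plain CPM in Ppy+ cells against 654 and 536 CPM in Gcg+ cells and 290 and 283 CPM in Ins2+ cells. G6pc2, a glucose-6-phosphatase subunit of islets, had 2 UMIs in each Ppy+ sum and stood at 507 and 540 CPM in Ins2+ cells. In bulk 2 of 14 were higher in γ, Slc30a8 (3.51) and G6pc2 (2.26), beside 35% of all genes in either direction.

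Over the 14 sums, the genes whose pattern was most like that of a given factor were Enho (Pearson's r = 0.993), Nectin3 (0.971) and Frzb (0.965) for Insm1, Foxp1 (0.971), Gprasp2 and Rgs17 for Isl1, Pdx1 (0.967), S100a1 and Igf1r for Pax6, and Spc25 (0.962), Dapl1 and Cpe for Neurod1, among 3694 genes compared. For Nkx2-2 they were C1galt1 (0.956), Cyb5r3 and Ociad2, for Rfx6 Baiap3 (0.904), Dach1 and Gnai2, and for St18 Fnip1 (0.862), Snx4 and Alg2. The best match of Foxa2 was also Fnip1 (0.862), and that of Myt1 was Cog7 (0.810). Among the 9 factors themselves the highest value was 0.819 for Pax6 and Insm1 and the lowest -0.790 for Isl1 and Nkx2-2. The sums share 2 experiments and 4 libraries and differ in depth, so these values describe the 14 points only.

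RefSeq promoter windows, from 250 bases before to 50 after a transcription start, were at hand for 7 of the 9 genes (12 windows), not for Insm1 and St18. Motifs of the factors' own families were searched on both strands. An E-box CAGATG and an NKX2-type TCAAGTG were found in the window of Nkx2-2, a homeodomain core TAATTA in that of Rfx6, an RFX half-site GTTGCC at Pax6 and Rfx6, a forkhead TGTTTAC at Myt1 and a MYT1-type AAAGTTT at Foxa2 and Myt1. Among all 32851 windows these motifs were present in 17.1%, 3.06%, 5.29%, 12.5%, 3.65% and 4.74%, in that order.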

How the data were processed

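The authors deposited single-cell UMI counts per library (Cell Ranger, mm10 with YFP and rtTA added, cells with at least 500 genes) and a bulk table of read counts per gene (STAR 2.7.2b, HTSeq 0.9.1, GRCm38.p6, per the submitters' notes). In both the deposited values are raw counts. The bulk table also held 6 per-sample columns of α- and β-cells that match no labelled sample, and these were not used. The 9 genes and the lists beside them were chosen with earlier results of these data known. The named genes are all 9, and from each list up to 6 genes with the largest change among those called at 20 CPM or more in the higher group. The 3 genes most like each in pattern were taken by Pearson's r among genes at a mean of 20 CPM.

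Scrublet marked 8 cells, under 0.5%, and so did not work; a nearest-neighbour caller set at 2% marked 120, and 126 cells marked by either were removed. Cells were integrated and clustered with Seurat 5.3.0 without the 9 genes or the list genes; clusters with at least 3 of 10 leading genes on a non-endocrine marker list were left out, and classes were set by hormone thresholds within clusters. UMIs were summed per class and experiment and tested with edgeR 4.0.16 (quasi-likelihood, TMM, filterByExpr, experiment as a block, 1 fit over 14 sums). Bulk counts were tested with edgeR on genes at a mean of at least 5 counts. Adjusted p-values (Benjamini-Hochberg) run over all genes tested. Class deviations of the same experiment correlated at 0.10 or more (median 0.23), and cells of 1 experiment were prepared together. Intervals and limits for counts of 0 (3 counts) cover counting error only. With 2 sums a class, p-values rest on the spread pooled over classes. The labels do not say which animals gave the bulk libraries, so bulk p-values measure the spread between these libraries, which may be technical. Alternatives used DESeq2 1.42.0 and mgcv 1.9.3. GC content came from GENCODE gene models on GRCm38. The values of some members of the gene lists, and counts that turn on them, are not reported here. Scripts were tested on simulated data. Analyses ran in R 4.3.3 and Python 3.11.15.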

Additional observations from a re-analysis of the deposited data

Results flagged for a closer look

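Insm1 had opposite directions in the 2 assays, with a log2 fold change of 2.54 for bulk γ over δ libraries and -2.10 for Ppy+ over Sst+ single cells. All 5 γ libraries were above all 3 δ libraries, and both Ppy+ sums were below both Sst+ sums; the difference between the assays was not tested. Its coding sequence, at 74.1%, has the highest GC content of the 9, and the bulk value was 0.63 with GC and length offsets.

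Among cells outside the comparisons, a cluster of 30 cells, left out as goblet cells and found in the YFP- library of experiment 2 only, held Neurod1 at 266 CPM, from 36 UMIs in 4 cells. Its leading genes included the goblet genes Tff3, Zg16 and Muc2 and also Gip, Cck and Sct, which are hormone genes of enteroendocrine cells. The sum of the 9 genes was 616 CPM in cells of the T lineage and 387 CPM in acinar cells, against 24.1 CPM in endothelial cells. With no doublets removed, the T-lineage cluster was a different one, of 133 rather than 57 cells and led also by Pclaf, Top2a and Ms4a1, and its sum was 256 CPM. No γ bulk library stood apart from the other 4 for any of the 9 genes by Dixon's criterion, which by chance alone marks about 1 in 20 groups.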

How the results depend on the processing

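Of 128 counts of called genes under the alternatives 114 stayed within 1.5 times the reported count, and of 529 recomputed changes of single genes 485 were unchanged. Unchanged means the same direction and call. Single-cell fits that left out an experiment made no call, and there it means the same direction and a value close to the reported one, judged by its SE. All 36 shares of cells moved on thinning. Thinning cells to 1000 UMIs gave 2 genes for Ppy+ against Ins2+, 5 for Ppy+ against Sst+, 3 for Gcg+ against Sst+, 0 for Ppy+Gcg+ and 1 for Ppy+Ins2+, and Rfx6 in Ppy+Gcg+ cells reversed to -0.0022. Library totals alone, added after seeing the data, gave 3 for Ppy+ against Ins2+, 8 (all lower) for Ppy+ against Sst+, 7 (all lower) for Ins2+ against Sst+, 2 for Ppy+Gcg+ and 7 (all higher) for Ppy+Sst+, and reversed Neurod1 in Ins2+ against Sst+ (-0.29) and Pax6 (0.13) and St18 (0.29) in Gcg+ against Ins2+. Without a fold threshold the counts were 5 for Ppy+ against Sst+, 2 for Ppy+Gcg+ and 7 for Ppy+Ins2+. Without the replicate block for experiment, Ppy+Gcg+ had 0. Thinned cells hold fewer UMIs by construction; other causes were not tested. Over all genes, those called for Ppy+ against Gcg+ went from 1319 to 764 without the block, 397 with library as a block, 324 on thinning, 806 with DESeq2, 2039 without a fold threshold and 2369 with library totals; for Ppy+ against Ins2+ from 2737 to 1375, 484 and 4923 with library as a block, thinning and library totals; for Ppy+ against Sst+ from 1256 to 798 without the block and 463, 372 and 4229 with those 3. Any difference among classes went from 4115 to 2726 without the block, 909 on thinning and 8821 with library totals. For Ppy+Gcg+ 281 became 78, 93, 126, 497 and 690 (no block, thinning, DESeq2, no fold threshold, library totals), for Ppy+Sst+ 805 became 440, 311 and 3194 (no block, thinning, library totals), and for Ppy+Ins2+ 759 became 436 and 143 (no block, thinning). On thinning, Gcg+ against Ins2+ went from 2320 to 523, Gcg+ against Sst+ from 1250 to 413 and Ins2+ against Sst+ from 1587 to 309; library totals gave 7026 for the first and 7186 for the last. In bulk, leaving out each library gave 4 to 6 genes, and 9514 rather than 6268 genes passed without a fold threshold. The bulk numbers did not pair the libraries (correlations -0.18, 0.076 and -0.31), and a fit with the replicate block on them called 6 of the 9. For that fit and those leaving out a library, the share of all genes is not given here. Their counts therefore cannot be set beside it. The omnibus test was not run in DESeq2. Rfx6 in Ppy+ cells rested on 39 UMIs.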
